A study of Rattus norvegicus with 90 samples.

Results

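A set of 130 rat transcripts had a higher mean level in cultured renal cells given the high dose of thioacetamide-S-oxide for 9 h than in vehicle, and a mean level near vehicle in hepatocytes and cardiomyocytes at their own high doses. They were chosen from 40071 Ensembl transcripts by their CPM, the counts of a transcript scaled to a common total of transcript counts per library. A transcript had to average at least 2 CPM in each of the 3 cell types over the 10 vehicle and high-dose libraries at 9 h, which left 11421 broadly expressed transcripts. The score L, the log2 ratio of mean high-dose to mean vehicle CPM at 9 h with 1 added to each, had to lie within -0.3 to 0.3 in hepatocytes and in cardiomyocytes, which left 5156. The members were the 130 of these, or 2.52%, with L above 0.5 in renal cells, so that the upper limit of 150 set on the list was not reached.

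Poly-A-enriched RNA was sequenced from 90 cultures of primary cells of Sprague-Dawley rats, 5 for each of 18 conditions. The cells were primary hepatocytes from liver, renal tube epithelial cells from kidney and cardiomyocytes from heart, and each received vehicle, a low dose or a high dose for 9 or 24 h. The doses were 0.025 and 0.125 mM for hepatocytes, 0.125 and 0.5 mM for renal cells, and 0.5 and 1.5 mM for cardiomyocytes, so that only 2 concentrations were shared between cell types. The hepatocytes and renal cells were bought frozen from vendors, nothing in the labels ties a culture to an animal, and p-values therefore measure the spread between cultures, which may be technical. The age and sex of the source animals were not given.

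Thioacetamide is a classic liver toxicant that must first be oxidised. Its S-oxide is the first oxidation product and is itself oxidised further to the reactive form that binds proteins and lipids, a step carried out by enzymes that are abundant in hepatocytes. Proximal tubular cells of the kidney take up and concentrate many foreign compounds and also oxidise some of them. The question addressed by the comparison of cell types was which responses to the same metabolite were shared and which were restricted to 1 organ's cells.

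The members carry Ensembl transcript identifiers, and 0 of the 130 could be matched to a gene, so they are described by their rank by L (rank 1 has the largest L) and by their measured behaviour, and only 3 are named. For the same reason the cell type labels could not be checked against marker transcripts. In RNA from whole cultures, fewer cells of a type and less RNA per cell cannot be told apart, and all levels are relative to the total transcript counts of a library.

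Counts on transcripts ranged from 10519414 to 55822031 in 89 libraries. The remaining library, MS-183, a hepatocyte vehicle culture at 24 h, had 249303. Its total was 2993135 counts against at least 11415878 in the others, 8.33% of its counts fell on transcripts against 84.1% to 95.3%, and 771 of its counts fell on the members. The edgeR counts and changes of the members that rest on the hepatocyte vehicle at 24 h are therefore given with and without MS-183, and levels in TPM without it. In MS-145, MS-158 and MS-172, all low dose, the median broadly expressed transcript stood 0.62, 0.64 and 0.84 below vehicle on the log2(CPM + 1) scale, and in no other library apart from MS-183 more than 0.12 below it.

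At 9 h the renal L of the members ran from 2.09 for rank 1 down to 0.501, with a median of 0.62. The last member stood at 0.501 and the next transcript below the limit at 0.499, and 133 further transcripts that met the other criteria had L between 0.4 and 0.5. The list therefore had no gap at its lower edge, with 58 members at or under 0.6 and 11 over 1. The median L of the members was -0.02 in hepatocytes and 0.10 in cardiomyocytes, and 62 and 102 members were above 0 there. These values chose the members and are given as a description only.

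The same contrasts fitted with edgeR's quasi-likelihood test show what the choice amounted to. A transcript was called where the Benjamini-Hochberg adjusted p was at most 0.05 and the change was at least 1.51-fold (log2 0.59). In renal cells at 9 h and high dose, 99 of the 129 members tested were called higher, against 8.16% of all transcripts tested. In cardiomyocytes and hepatocytes 0 members were called at 9 h and high dose, while 6.22% and 8.48% of all transcripts were called higher. By unadjusted p under 0.05, 44 members in cardiomyocytes and 46 in hepatocytes differed from vehicle by edgeR, against 51.1% and 55.4% of all transcripts, and DESeq2 and limma also called 0 in both. By adjusted p alone, 22 members were higher and 11 lower in cardiomyocytes, against 23.1% and 22.2% of all transcripts. In hepatocytes 34 were higher and 6 lower, against 24.6% and 25.1%.

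The 24 h cultures took no part in the choice of members. In renal cells at 24 h and high dose, 69 of 130 members were called higher than vehicle and 0 lower, against 12.0% of the 17798 transcripts tested called higher and 14.9% called lower. The median log2 fold change of the members was 0.64, with the middle 50% of members between 0.39 and 0.89, against 0.02 for all transcripts tested and 0.06 for the broadly expressed ones. The estimate was above 0 for 123 members, against 9135 of the 17798 transcripts tested. By adjusted p alone 102 members were higher and 0 lower, against 26.7% and 26.5% of all transcripts, so that 33 members had an adjusted p of at most 0.05 with a change under the fold threshold, and 28 had an adjusted p over 0.05. By unadjusted p under 0.05, 0 members were lower by edgeR, against 5121 of the 17798 transcripts tested, and DESeq2 and limma called 0 lower.

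For 93 members (71.5%) all 5 high-dose libraries lay above all 5 vehicle libraries at 24 h, against 23.7% of all transcripts tested. Of these, 65 were called higher, and the other 4 members called higher had overlapping groups. Among the members ranked 1 to 10, 9 were called higher at 24 h, with a median log2 fold change of 2.16. Among ranks 1 to 43, 44 to 86 and 87 to 130, 27 of 43, 20 of 43 and 22 of 44 were called, with medians of 0.84, 0.60 and 0.61.

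**Figure D1:**
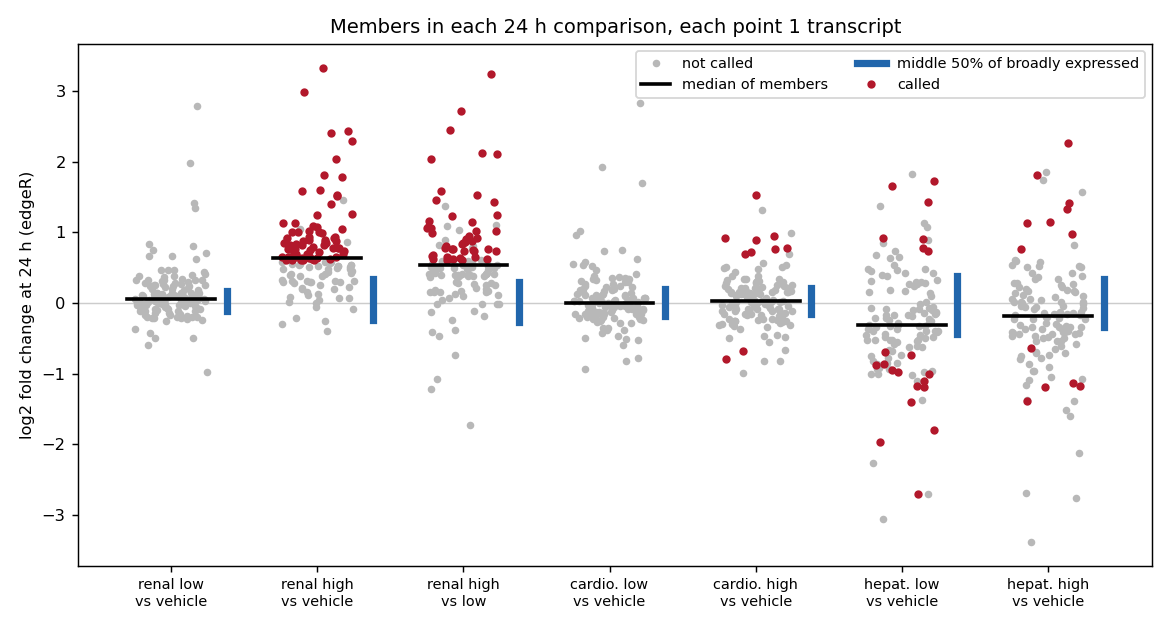
Each point is the edgeR log2 fold change of 1 member at 24 h in 7 comparisons (horizontal axis), red where called, with the median of the members as a black line and the middle 50% of the broadly expressed transcripts as a blue bar. The medians of the renal high dose against vehicle and against low dose, 0.64 and 0.53, lie above the bars, though single members do not. The other comparisons, with MS-183 kept, have medians between -0.31 and 0.06.

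The level of the set as a whole can be followed library by library. The summed CPM of the members in renal cells at 9 h was 3983 ± 24.7 in vehicle, 4665 ± 75.5 at low dose and 6317 ± 117 at high dose (SD, n = 5). At 24 h it was 4287 ± 66.2 in vehicle, 4359 ± 273 at low dose and 7123 ± 109 at high dose. The 5 high-dose libraries at 24 h (6977 to 7259) all lay above the 5 vehicle libraries (4181 to 4347). The largest member supplied 12.2% of the sum in vehicle at 24 h and the 10 largest 45.5%, and these shares were 11.7% and 45.9% at high dose, so the rise of the sum was not carried by 1 transcript.

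The median member gives the same order without weight on abundant transcripts. Against the mean vehicle level of the same time, on the log2(CPM + 1) scale, the median member stood at 0.59 to 0.70 in the 5 high-dose renal libraries at 9 h and at 0.61 to 0.67 at 24 h. The broadly expressed transcripts stood at -0.02 to -0.01 and at 0.03 to 0.14 in the same libraries. At low dose the median member stood at 0.14 to 0.20 at 9 h in all 5 libraries. At low dose and 24 h it stood between -0.05 and 0.09 in 4 libraries and at -0.51 in MS-145, where the broadly expressed transcripts stood at -0.62.

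**Figure D2:**
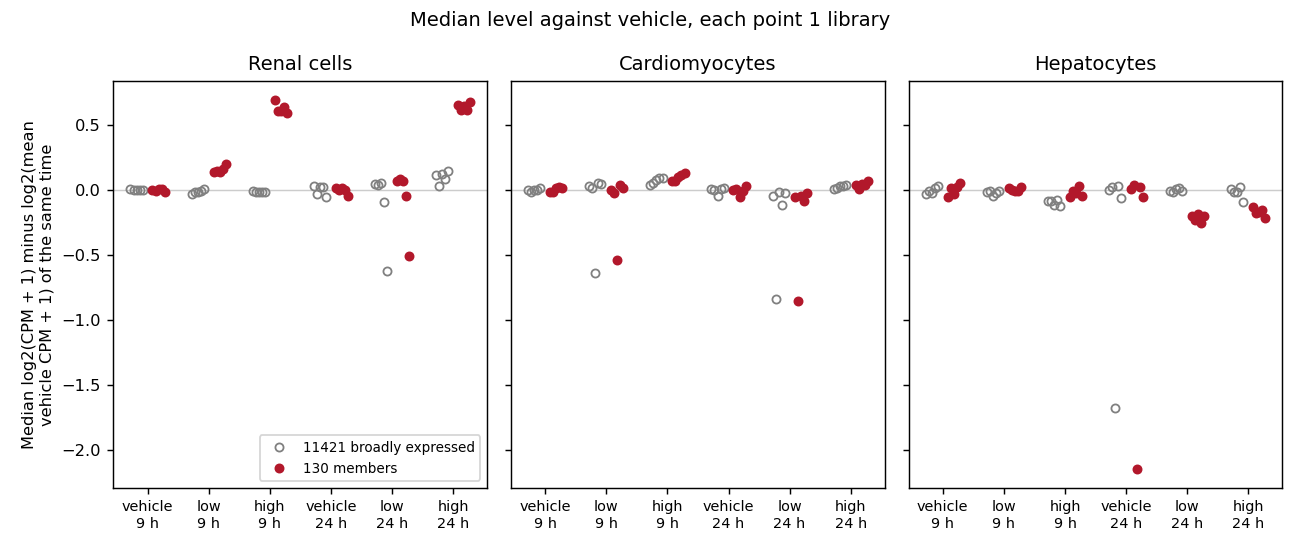
Each point is 1 library, placed by the median difference of log2(CPM + 1) from the mean vehicle level of the same cell type and time (vertical axis), for the 130 members (red) and the 11421 broadly expressed transcripts (open grey), with MS-183 left out of the hepatocyte reference. The renal high-dose libraries lie at 0.59 to 0.70 at both times, and the points far below 0 are MS-145, MS-158, MS-172 and MS-183, in which both sets are low.

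The low dose in renal cells was 0.125 mM, and its effect on the members was no longer called at 24 h. At 24 h edgeR called 0 of 129 members in either direction, against 0.0622% of all transcripts tested, and the median log2 fold change was 0.06 with a median standard error of 0.17. By unadjusted p under 0.05, 7 members were higher and 1 lower, against 6.33% of all transcripts in either direction, and DESeq2 and limma also called 0. Without MS-145 the number called was again 0 and the median 0.06. In 2 members all 5 low-dose libraries lay above all 5 vehicle libraries, against 0.724% of all transcripts tested.

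At 9 h the low dose was compared with the same vehicle libraries that entered the rule, so that its values are a description. There 7 members were called higher and 1 lower of 129, against 2.28% and 4.41% of all transcripts tested, with a median log2 fold change of 0.18. By adjusted p alone 51 were higher and 3 lower, against 14.3% and 14.7% of all transcripts. The same dose name in the other cell types gave 3 members called higher in cardiomyocytes (0.5 mM), against 1.28% of all transcripts, and 0 called by edgeR in hepatocytes (0.025 mM), against 2.34% called in either direction. In hepatocytes 23 members had an unadjusted p under 0.05, against 30.8% of all transcripts, and DESeq2 and limma also called 0. Of the 7 members called higher in renal cells, ranks 17 and 27 had the largest changes, at log2 0.89 and 0.85.

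The high dose was also compared with the low dose at 24 h, which leaves the vehicle libraries out altogether. Of 130 members, 48 were called higher at high dose and 0 lower, against 8.38% of all transcripts called higher and 11.3% called lower, and the median log2 fold change was 0.53. By unadjusted p under 0.05, 1 member was lower by edgeR, against 3747 of the 17941 transcripts tested, and DESeq2 and limma called 0 lower. In 84 members all 5 high-dose libraries lay above all 5 low-dose libraries, against 20.3% of all transcripts tested.

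Members differed in how the change went on from 9 to 24 h. Of the 129 with an estimate at both times, 53 had a larger log2 fold change at 24 h than at 9 h, and 49 of these were called at 24 h. At 24 h 25 members had a log2 fold change of at least 1, and 6 of at least 2. At the other end, 13 members were within 0.2 of vehicle. Because the members were taken for a high value at 9 h, nothing was read from the number with a smaller change at 24 h. Over the 130 members the correlation of L with the 24 h log2 fold change was 0.61 (Pearson) and 0.23 (Spearman), with no library shared between the times, and without the first 10 members the Pearson value was 0.06 over 120.

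Some of the strongest members kept rising. The rank 3 member (2751 bases) was at 5.12, 4.89, 4.40, 4.83 and 4.23 CPM in renal vehicle at 9 h and at 17.6, 16.9, 17.5, 15.8 and 15.5 CPM at high dose. At 24 h it was at 5.19, 5.22, 6.19, 4.64 and 4.64 CPM in vehicle and 24.5, 22.2, 27.4, 27.5 and 29.98 CPM at high dose. The groups did not overlap at either time, and the log2 fold change at 24 h was 2.29 ± 0.09 (SE, edgeR adjusted p = 1.5e-08).

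The rank 9 member (3165 bases) showed the same course more steeply. It went from 4.96 ± 0.79 CPM in vehicle to 11.3 ± 1.1 CPM at high dose at 9 h, and from 5.25 ± 0.63 to 28.8 ± 3.2 CPM at 24 h (SD, n = 5). The low dose stayed between 5.36 and 6.86 CPM in all 10 libraries of both times. Its log2 fold change at 24 h was 2.40 ± 0.12 (SE) in renal cells and -0.10 ± 0.09 in cardiomyocytes, and the difference of 2.52 was called (edgeR adjusted p = 3.5e-10).

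A large rise at 24 h also came from members near the limit at 9 h. The rank 117 member (3446 bases, L 0.52), one of the abundant ones, was at 124 to 130 CPM in vehicle and 175 to 190 CPM at high dose at 9 h. At 24 h it was at 111 to 121 CPM in vehicle, 99.4 to 123 CPM at low dose and 336 to 401 CPM at high dose. The high-dose libraries stood apart from both other groups, with a log2 fold change of 1.59 ± 0.04 (SE, edgeR adjusted p = 5.7e-10).

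Other members were back at vehicle level by 24 h. The rank 13 member (4322 bases) was at 7.63 to 10.6 CPM in vehicle and 13.0 to 21.5 CPM at high dose at 9 h, and at 8.13 to 10.3 and 5.69 to 11.4 CPM at 24 h. The rank 68 member (879 bases) was at 201 to 206 CPM in vehicle and 304 to 321 CPM at high dose at 9 h, but its vehicle level at 24 h was 319 to 398 CPM, overlapping the 314 to 387 CPM of the high dose. For this member the vehicle level itself was higher at 24 h than at 9 h, with no overlap between the times, and at 9 h the low dose (296 to 358 CPM) overlapped the high dose.

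One member was not measured steadily enough to be read. The rank 11 member (1260 bases) ran from 0 to 18.7 CPM among the 5 renal high-dose libraries at 9 h and from 0 to 27.8 CPM among the vehicle libraries at 24 h. It was not tested at 9 h, and its estimate at 24 h, 0.91 ± 1.5 (SE), was smaller than its error. It owed its place in the list to a few libraries.

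**Figure D3:**
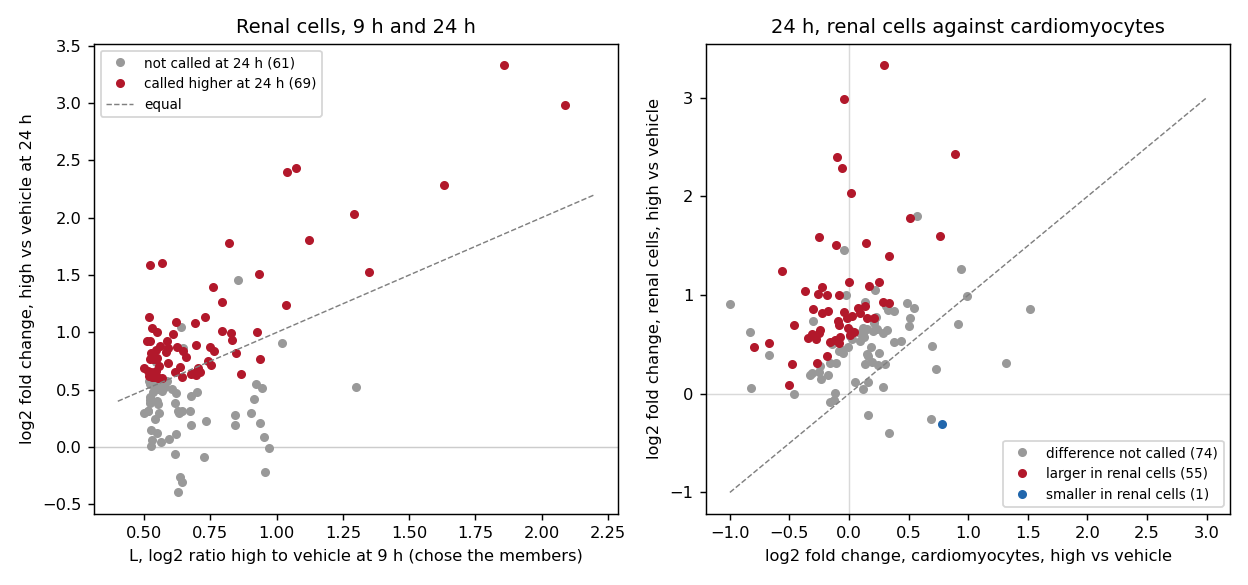
Each point is 1 of the 130 members, with the log2 fold change of renal cells at high dose and 24 h on the vertical axes, against L at 9 h on the left and against the cardiomyocyte high dose at 24 h on the right. On the left 69 members are called (red) and the correlation of 0.61 comes from the first few, and on the right 55 members lie above the dashed line of equal change with a called difference and 1 lies below it.

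The rule asked for flat behaviour in cardiomyocytes and hepatocytes at 9 h only, and the 24 h cultures test whether the difference between cell types was still present. In cardiomyocytes at 1.5 mM and 24 h, 8 members were called higher and 2 lower, against 6.01% and 6.39% of all transcripts tested, and the median log2 fold change was 0.02. The share of members called higher, 6.15%, was near that of all transcripts. By adjusted p alone 25 were higher and 15 lower, against 15.3% and 15.4% of all transcripts. At 0.5 mM edgeR called 0 members and 0 (0%) of all 16998 transcripts tested at 24 h, with 11 members at an unadjusted p under 0.05 against 11.9% of all transcripts, while DESeq2 called 2 members and limma 0.

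The difference between the renal and the cardiomyocyte response was tested directly as an interaction term over the 20 libraries. At the high dose of each cell type, the renal log2 change was called larger than the cardiomyocyte change in 55 of 130 members and smaller in 1, against 9.88% and 11.3% of all transcripts tested. The median difference was 0.61 for the members and 0.03 for all transcripts. At the concentration both cell types received, 0.5 mM (the renal high and the cardiomyocyte low dose), 53 members were called with the larger change in renal cells and 0 with the smaller, against 7.35% and 9.78%, with a median difference of 0.67. By unadjusted p under 0.05, 0 members had the smaller change there by edgeR, against 3384 of the 19129 transcripts tested, and DESeq2 and limma called 0. Without MS-172 the number called larger was 64, against 9.11% of all transcripts.

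A few members were called in cardiomyocytes at high dose and 24 h. Of the 8 called higher, 4 were also called higher in renal cells, near the 53.1% of all members called higher there. The rank 8 member (451 bases) was one of these 4. It was at 12.5 to 38.6 CPM in cardiomyocyte vehicle and 36.0 to 51.2 CPM at high dose, with overlapping groups and a log2 fold change of 0.89 ± 0.24 (SE). In renal cells it went from 24.9 to 35.8 CPM in vehicle to 133 to 202 CPM at high dose, a log2 fold change of 2.43 ± 0.11, and the difference of 1.58 was called (edgeR adjusted p = 0.00016). Hepatocytes at 24 h held 110 to 131 CPM of it in vehicle, MS-183 aside at 0. They held 201 to 251 CPM at low dose and 242 to 342 CPM at high dose. The hepatocyte vehicle at 9 h was at 276 to 303 CPM.

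Both members called lower in cardiomyocytes were higher than vehicle in renal cells by adjusted p, under the fold threshold. The rank 15 member (2349 bases) was at 55.1 to 59.8 CPM in cardiomyocyte vehicle and 32.8 to 39.0 CPM at high dose, and at 60.0 to 64.4 and 88.5 to 98.0 CPM in renal cells. The groups did not overlap in either cell type, and the log2 changes were -0.68 ± 0.05 and 0.51 ± 0.06 (SE). The rank 43 member (2305 bases) had log2 changes of -0.80 ± 0.12 in cardiomyocytes and 0.48 ± 0.06 in renal cells. The differences of 1.22 and 1.31 between the cell types were both called.

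In hepatocytes at 24 h the members did not follow the renal response. At 0.125 mM, 8 were called higher and 5 lower than vehicle, against 6.65% and 3.72% of all transcripts, with a median log2 fold change of -0.19. On library-total scaling the members' median was 0.28, or -0.03 relative to all transcripts, and limma on that scale called 3 members and edgeR without a filter 1. Without MS-183, 14 (10.8%) were called higher and 28 (21.5%) lower, against 15.1% and 11.6% of all transcripts, and the median was -0.20. At 0.025 mM, 7 were called higher and 14 lower, against 11.6% and 7.89%, with a median of -0.31 that became 0.23 on library-total scaling, or -0.10 relative to all transcripts. Limma called 5 members there and edgeR without a filter 2. Without MS-183 edgeR called 17 higher and 39 lower at this dose, against 20.1% and 16.9%, with a median of -0.29. With MS-183 kept, leaving out any 1 of the other 9 libraries of a comparison left 4 to 6 calls in either direction at high dose and 8 to 14 at low dose, in place of 13 and 21.

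The hepatocyte vehicle at 24 h stood apart from the other hepatocyte groups in its level of the members. Its 4 libraries other than MS-183 had summed member levels of 6542 to 7110 CPM, above the 5594 to 6218 CPM of all 25 libraries of the other 5 hepatocyte groups. Its 5 library numbers, MS-181 to MS-185, also follow those of all other groups in the labels. Whether a library's handling or its treatment sets these values cannot be told apart for this group.

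The renal response at high dose was called larger than the hepatocyte response at high dose in 55 members and smaller in 3, against 12.6% and 13.9% of all transcripts tested, with a median difference of 0.79. On library-total scaling, as in limma, the median difference was 0.34, or 0.51 above that of all transcripts, and limma called 23 larger. Without MS-183 the edgeR numbers were 75 and 3, against 17.3% and 19.9%, with a median difference of 0.80. At the shared 0.125 mM, the renal low and the hepatocyte high dose, 6 members were called with the larger change in renal cells and 3 with the smaller, against 3.12% and 4.11%, with a median difference of 0.24. Limma called 0 larger and 2 smaller, with a median of -0.24 that was 0.10 relative to all transcripts, and edgeR without a filter called 2 and 2. Without MS-183 edgeR called 25 and 6, against 7.92% and 9.45%, with a median difference of 0.31. With MS-183 kept, leaving out any other library left 2 to 7 members called larger there.

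The first member by L, ENSRNOT00000032174 (1322 bases), was close to absent in untreated renal cells. It was at 0.327, 0.337, 0.354, 0.385 and 0.122 CPM in renal vehicle at 9 h and at 5.77, 3.97, 3.99, 4.54 and 4.49 CPM at high dose. At 24 h it was at 0.287, 0.0932, 0.276, 0.149 and 0.193 CPM in vehicle, which rests on 1 to 8 counts in a library. At high dose and 24 h it was at 1.68, 1.38, 1.47, 2.08 and 2.16 CPM, or 33 to 72 counts.

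All high-dose libraries of ENSRNOT00000032174 lay above all vehicle libraries at both times, and the low dose (0.127 to 0.408 CPM over both times) overlapped the vehicle. The log2 fold change at 24 h was 2.98 ± 0.27 (SE, edgeR adjusted p = 5.5e-06) and 1.68 by limma on log2(CPM + 0.5), and the low dose was too sparse to be tested. Its mean level was 3.64 ± 0.53 CPM in cardiomyocyte vehicle and 3.57 ± 0.91 CPM at high dose at 24 h (SD, n = 5), a log2 change of -0.05 ± 0.19 (SE). The renal change exceeded the cardiomyocyte change by 3.06 ± 0.32 (SE, adjusted p = 3.4e-07). In hepatocytes at high dose and 24 h its log2 change was -0.96 ± 0.37 (SE, edgeR adjusted p = 0.13), and without MS-183 it was -1.09 and called lower (adjusted p = 0.0019). In the other cell types the transcript lay at 1.66 to 9.14 CPM, MS-183 aside at 0. With its low renal vehicle level it could reach the rule's minimum of 2 CPM in renal cells only through the high-dose libraries at 9 h.

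The largest 24 h change among the called members was that of ENSRNOT00000083855 (2318 bases, rank 2). In renal cells it was at 1.43, 1.81, 1.04, 2.38 and 1.02 CPM in vehicle and 9.93, 7.80, 7.03, 8.55 and 7.62 CPM at high dose at 9 h. At 24 h it was at 0.488, 0.652, 0.598, 0.229 and 0.463 CPM in vehicle and 5.37, 3.09, 5.13, 4.79 and 6.71 CPM at high dose. The groups did not overlap, and the log2 fold change at 24 h was 3.33 ± 0.28 (SE, edgeR adjusted p = 3.1e-06). Its vehicle mean at 9 h was under the rule's minimum of 2 CPM in renal cells and, at 1.86 CPM, in cardiomyocytes. It thus reached that minimum in both cell types only through the high-dose libraries at 9 h.

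At the low dose in renal cells ENSRNOT00000083855 was not called higher at either time. At 9 h the low-dose libraries were at 0.632, 0.565, 0.753, 0.762 and 0.912 CPM, all below the 5 vehicle libraries, a log2 change of -1.08 ± 0.28 (SE, edgeR adjusted p = 0.013), which made it the only member called lower in renal cells at the low dose and 9 h. At 24 h the low dose was at 0 to 0.692 CPM and overlapped the vehicle. The order of the doses at 9 h was thus low, vehicle, high, with no overlap between them.

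Of the members, ENSRNOT00000083855 also had a clear difference between cell types in its level. Hepatocytes held 374 to 619 CPM of it in every library of 5 of the 6 hepatocyte groups, and 153 to 175 CPM in 4 vehicle libraries at 24 h, with 16.0 CPM in MS-183, while all renal and cardiomyocyte libraries held under 10 CPM. In hepatocytes at 24 h it was called higher than vehicle at both doses, by log2 1.81 ± 0.46 at high dose (SE, edgeR adjusted p = 0.029) and 1.66 ± 0.46 at low dose (adjusted p = 0.027). Without MS-183 these log2 changes were 1.56 (edgeR adjusted p = 9.0e-07) and 1.40 (adjusted p = 5.4e-08). The high-dose libraries at 24 h (374 to 554 CPM) overlapped the vehicle libraries at 9 h (481 to 569 CPM), so the group that differed from the rest was the vehicle at 24 h. Flatness in the other 2 cell types at 9 h was required by the rule, so a rise in renal cells alone at that time is no finding. In cardiomyocytes at 9 h the transcript was at 1.31 to 2.23 CPM in vehicle and 2.19 to 2.88 CPM at high dose, and counted as flat by L.

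**Figure D4:**
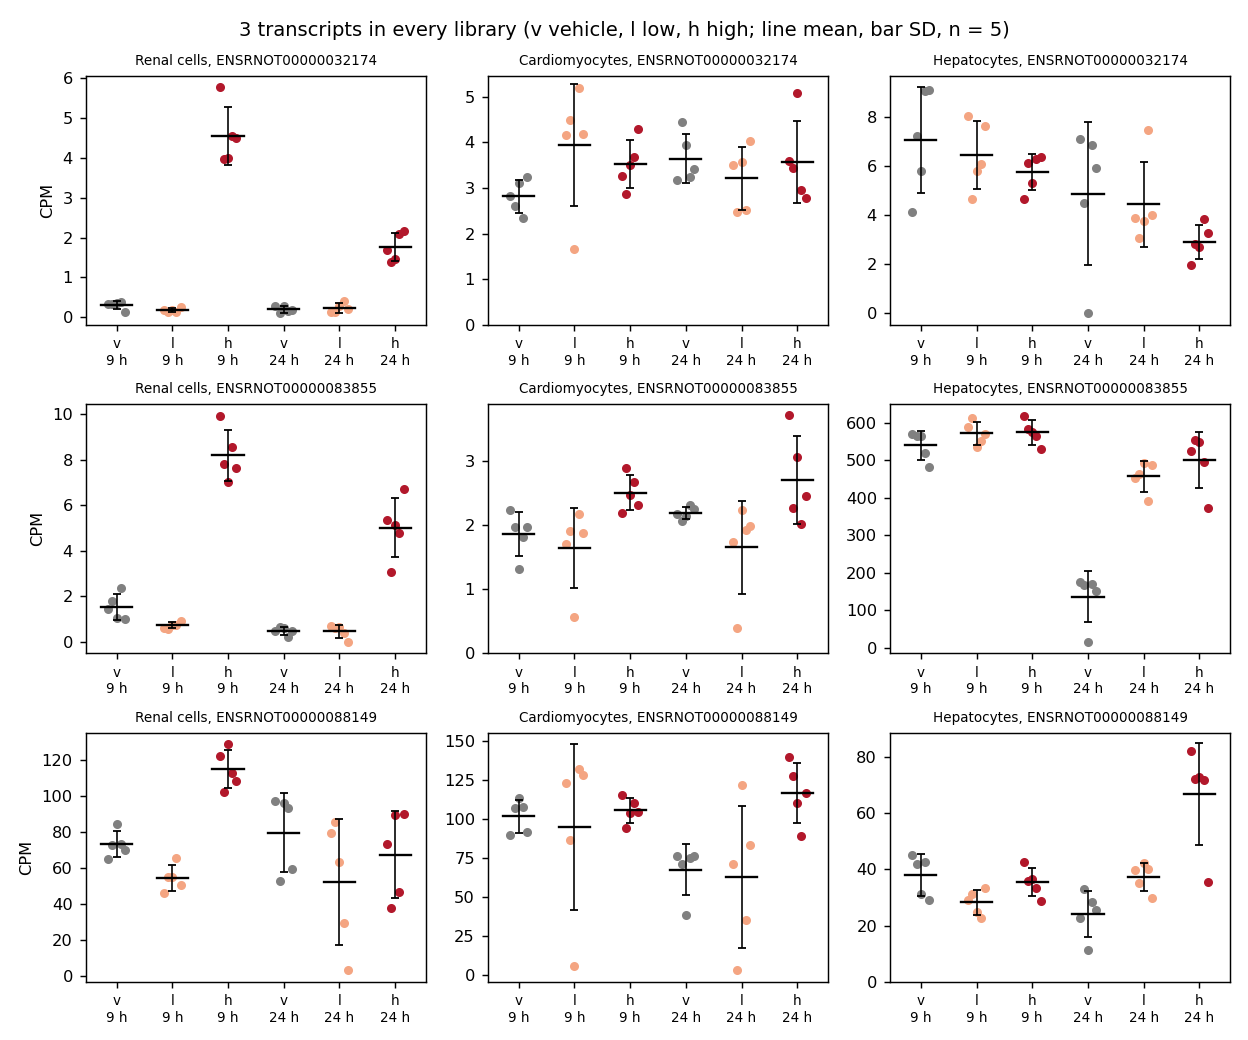
Each panel plots the CPM of 1 of 3 transcripts (rows) in every library of 1 cell type (columns), with groups in order of time and dose, black lines for the mean and bars for the SD over 5 libraries. The upper 2 transcripts are high in renal cells at the high dose alone, and the lowest row shows the 1 member whose renal change at 24 h edgeR called smaller than its cardiomyocyte change.

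ENSRNOT00000088149 was named after its values were seen, since it was the only member whose renal change at 24 h edgeR called smaller than the cardiomyocyte change, where DESeq2 called 2 and limma 1. The transcript (8181 bases, rank 55) was at 64.96, 72.7, 84.6, 73.3 and 70.2 CPM in renal vehicle and 122, 102, 129, 113 and 108 CPM at high dose at 9 h. At 24 h it was at 97.0, 52.7, 95.9, 93.6 and 59.3 CPM in vehicle and 73.2, 37.7, 89.7, 46.5 and 89.9 CPM at high dose. The 24 h groups overlapped, with a log2 change of -0.30 ± 0.25 (SE, edgeR adjusted p = 0.34).

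In cardiomyocytes at 24 h, ENSRNOT00000088149 was at 76.4, 71.5, 38.8, 74.8 and 76.3 CPM in vehicle and 140, 128, 110, 88.9 and 117 CPM at high dose. These groups did not overlap, with a log2 change of 0.78 ± 0.18 (SE, edgeR adjusted p = 0.0066), and the difference between the cell types was -1.06 ± 0.33 (adjusted p = 0.018). In hepatocytes at high dose and 24 h its log2 change was 1.33 ± 0.25 (adjusted p = 0.0063), and 1.25 without MS-183 (adjusted p = 0.00059). It was thus raised in renal cells at 9 h and in cardiomyocytes at 24 h. The hepatocyte change rests on the 24 h vehicle, which stood apart from the other hepatocyte groups. At low dose and 24 h without MS-183 that change was 0.39 (edgeR adjusted p = 0.014), under the fold threshold. Its level in the low-dose libraries that stood apart was low, at 3.10 CPM in MS-145, 5.65 CPM in MS-158 and 2.95 CPM in MS-172, and what part the quality of a library has in the level of so long a transcript was not tested.

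Some features were not used by the rule. The members had a median length of 2488 bases, with the middle 50% between 1747 and 3477, against 2253 bases for the broadly expressed transcripts and 2014 for those flat in the other 2 cell types. For 58 members (44.6%) every one of the 90 libraries gave an estimated count within 0.001 of a whole number, as it is where no read was divided between transcripts, against 38.6% of the broadly expressed transcripts. Of these 58 members, 34 (58.6%) were called higher in renal cells at high dose and 24 h, and of the other 72 members 35 (48.6%) were. Among all transcripts tested there, 13.6% of the 6548 with such whole counts were called higher and 11.1% of the other 11250.

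The members were moderately expressed. Per length, in TPM (the deposited length-scaled level) and with MS-183 left out, the median member stood at 8.97 TPM in renal vehicle at 24 h, at 9.94 in hepatocyte vehicle and at 9.27 in cardiomyocyte vehicle. The broadly expressed transcripts had medians of 17.1, 13.8 and 16.7 TPM. Single members ranged from 0.229 to 801 TPM in renal vehicle.

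The cell type with the highest untreated level differed from member to member. The highest vehicle TPM at 24 h was in renal cells for 29 members (22.3%), in cardiomyocytes for 40 (30.8%) and in hepatocytes for 61 (46.9%), against 34.8%, 35.5% and 29.6% of the broadly expressed transcripts. At high dose the median member in renal cells stood at 15.3 TPM, and with this group in place of the renal vehicle 84 members were highest in renal cells, against 44.1% of the broadly expressed transcripts. These counts are descriptions.

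The members can be set beside the 2 most similar sets in the same data. Turning the rule round, 245 transcripts flat in the other cell types had a renal L under -0.5 at 9 h. The limit of 150 cut these to the ones with the lowest L, whereas it did not cut the members. In renal cells at high dose and 24 h 48.0% of the 150 were called lower and 1.33% higher, with a median log2 fold change of -0.60. The 513 broadly expressed transcripts with renal L above 0.5 that were not flat elsewhere were called higher in 63.7% of the 510 tested in renal cells at 24 h, with a median of 0.79. In cardiomyocytes at high dose and 24 h, 27.0% of that set were called higher, with a median of 0.25, against the 6.15% and 0.02 of the members. The differences between cell types at 24 h can be set side by side for both sets. The renal change was called larger than the cardiomyocyte change in 38.6% of that set, with a median difference of 0.53, against 42.3% and 0.61 for the members. At the shared 0.5 mM the values were 41.4% and 0.64, against 40.8% and 0.67. With MS-183 kept, the renal change was called larger than the hepatocyte change in 54.8% of that set, with a median difference of 0.98, against 42.3% and 0.79 for the members. Without MS-183 the members had 57.7% and 0.80, and the other set was not counted. The order of the sets is therefore not read here, and no difference between them was tested.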

How the data were processed

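RNA-seq of 90 cultures was analysed, 5 in each of 18 groups taken from the sample labels. Per the labels' processing notes the authors used kallisto 0.42.4 and the Rnor_6.0 transcriptome on stranded poly-A libraries. For each library they deposited estimated counts, which divide a read among compatible transcripts, and TPM, with target lengths. The 25095 genomic intervals in the deposited tables were left out. The reference table of 47357 genes held 0 Ensembl identifiers, so the planned gene lists and marker checks could not be used and no sequence is shown. Transcripts are named by a rule of at most 2 that rose and 2 that fell, the latter finding none. ENSRNOT00000088149 was named outside that rule, after its values were seen.

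The estimated counts were rounded and tested with edgeR 4.0.16 (filterByExpr, TMM, quasi-likelihood) in R 4.3.3, with p-values adjusted over all transcripts tested and calls at an adjusted p of at most 0.05 and a natural-log change of at least 0.41. Differences between cell types were interaction terms. Alternatives were DESeq2 1.42.0, limma 3.58.1 on log2(CPM + 0.5), no filter, no fold threshold and leaving out each library. On simulated counts for renal high dose against vehicle at 24 h (17798 transcripts), 27 of 50 transcripts changed 1.5-fold and 50 of 50 changed 2-fold were called, with 1 unchanged transcript called. For the renal minus cardiomyocyte interaction (19306 transcripts) these numbers were 17 and 47 of 50, with 13 unchanged called. Members and comparisons were chosen with earlier results of these data known. Counts on transcripts per library limit precision, with a median of 26009496.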

Additional observations from a re-analysis of the deposited data

Results flagged for a closer look

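In each of the 18 groups the 5 libraries were checked for a value apart from the rest by Dixon's ratio (critical value 0.71), on the summed CPM of the members and on the median member's log2 level against vehicle. Of 36 checks 9 were past the critical value, where chance gives about 1 in 20, or 1.8. The summed level was 3518 CPM in MS-172 (cardiomyocytes, low dose, 24 h), 4270 CPM in MS-158 (cardiomyocytes, low dose, 9 h), 5890 CPM in MS-120 (hepatocytes, high dose, 24 h) and 3092 CPM in MS-183 (hepatocytes, vehicle, 24 h), each the lowest of its group. The median member stood at -0.85 in MS-172, -0.54 in MS-158, -2.15 in MS-183, -0.51 in MS-145 (renal cells, low dose, 24 h) and -0.048 in MS-140 (renal cells, vehicle, 24 h). In MS-145, MS-158, MS-172 and MS-183 the broadly expressed transcripts were low as well.

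The high-dose change at 24 h differed between renal cells and cardiomyocytes, by the interaction term in edgeR, for all 3 named transcripts. The renal minus cardiomyocyte difference was 3.06 for ENSRNOT00000032174, 3.05 for ENSRNOT00000083855 and -1.06 for ENSRNOT00000088149 on the log2 scale.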

How the results depend on the processing

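No paired analysis was possible because the replicate numbers in the labels are unique to a library and are not shared between groups. The count of members called higher in renal cells at high dose and 24 h was 69 by edgeR, DESeq2 and without a filter, 73 by limma and 102 without a fold threshold. Leaving out each library gave 68 to 71 there, 41 to 58 for high against low dose, 48 to 56 for renal minus cardiomyocyte, 38 to 75 for renal minus hepatocyte, 46 to 64 at the shared 0.5 mM, 2 to 25 at the shared 0.125 mM and 5 to 7 for the renal low dose at 9 h. It gave 8 to 12 for cardiomyocytes at high dose and 24 h, 2 to 4 for their low dose at 9 h, 4 to 42 for hepatocytes at high dose and 8 to 56 at low dose (highest without MS-183), and 118 to 129 shared members of the list. The hepatocyte high dose at 24 h had 13 calls, and 28 by DESeq2 (10 higher, 18 lower), 1 without a filter and 3 by limma. The hepatocyte low dose at 24 h had 21, and 40, 2 and 5. Renal minus hepatocyte had 55 higher and 23 by limma, and the shared 0.125 mM had 6 higher and 3 lower, 17 and 10 by DESeq2, 2 and 2 without a filter, and 0 and 2 by limma. Without the fold threshold, cardiomyocytes at high dose and 24 h had 40 calls in place of 10, the renal low dose at 9 h 51 in place of 7 (4 by limma), the cardiomyocyte low dose at 9 h 10 in place of 3 and the hepatocyte low dose at 9 h 7 in place of 0. The cardiomyocyte low dose at 24 h had 2 by DESeq2 in place of 0. The cause of these moves was not tested. The comparisons of the cardiomyocyte and hepatocyte low doses with vehicle, of the renal low dose with vehicle at 9 h, and of cell types at the shared 0.5 and 0.125 mM were given these alternatives after the data were seen. Scaling by library totals, as in limma, moved the median of all transcripts by 0.30 and 0.35 in hepatocytes at high and low dose at 24 h, where the members' median became 0.28 and 0.23, or -0.03 and -0.10 relative to all transcripts. The members' median for renal minus hepatocyte became 0.34 in place of 0.79, and at the shared 0.125 mM it became -0.24 in place of 0.24, or 0.51 and 0.10 relative to all transcripts. In renal cells at high dose and 24 h the median of all transcripts moved by 0.05. With the rule on TMM-scaled CPM the list had 150 transcripts, of which 113 are members, with a pseudocount of 0.5 it had 133 (121 members), and with a minimum of 5 CPM it had 87, all members.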
